A study of Mus musculus with 3 samples.

Results

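Histone genes were examined in the cytosolic RNA of mouse macrophages, with the clustered, replication-dependent genes set against the variant genes. A gene was taken in by its symbol, either one that begins with Hist1h, Hist2h, Hist3h or Hist4h or 1 of the 8 variants H2afz, H2afx, H2afy, H2afv, H2afj, H3f3a, H3f3b and H1f0, and by having a protein-coding transcript. This gave 75 genes, 67 clustered and 8 variant, of 22015 nuclear genes that code for protein. The clustered genes comprised 6 of H1, 18 of H2A, 18 of H2B, 12 of H3 and 13 of H4.

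The cells were macrophages cultured from the bone marrow of C57BL/6J mice. They had received Lipid A, the Toll-like receptor 4 ligand of bacterial endotoxin, at 100 ng/ml for 12 hours, then 12 hours without it, then 100 ng/ml again for 25 minutes before the cytosol was taken. RNA was depleted of ribosomal RNA, the labels name no poly(A) selection, and 3 libraries of this 1 group were sequenced (biological replicates 1 to 3, separate biosamples with 1 donor entry, sex and age not collected). With no untreated, resting or nuclear libraries here, values describe levels in restimulated cells, no p-value is given, and an SD is the spread over these samples, part of which may be technical.

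Total expected counts were 55517261, 21311556 and 45635014 in replicates 1, 2 and 3, and replicate 2 gives the least precision for low genes. Nuclear protein-coding genes held 29.6%, 40.4% and 34.8% of all TPM (transcripts per 1000000, a count per length scaled within a library), so a TPM in replicate 1 is lowered by that scale. Libraries were therefore compared with each other in rescaled TPM, which sums to 1000000 over those genes. All 8 macrophage markers reached 1 TPM in every library, among them Lyz2 at 3737 ± 895 TPM (SD, n = 3). Of 17 markers of other cells of marrow cultures, 16 had a mean under 1 TPM, Ly6g was listed at 0 in every library, and the exception was S100a8 at 3.89 ± 0.475 TPM. The list summed to 5.58, 5.99 and 5.18 TPM. The nuclear RNA Malat1 had 3900, 2414 and 709 rescaled TPM in replicates 1, 2 and 3, and the part of nuclear RNA in the values below was not tested.

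Histones are the proteins around which DNA is wrapped. H2A, H2B, H3 and H4 form the core of the nucleosome and H1 binds the linker DNA. Replication-dependent genes lie in clusters, mostly lack introns, are transcribed mainly in S phase, and give mRNAs that end in a conserved stem-loop, bound by the protein Slbp, in place of a poly(A) tail. Most variant genes lie alone, give polyadenylated mRNAs throughout the cell cycle and supply the histones of cells that no longer divide. Total RNA libraries hold both kinds of mRNA.

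The stem-loop was more frequent in the annotated models of clustered genes than in those of variants, without separating the 2 kinds fully. Its forms are shown because the results on annotated ends below rest on them. A 6-base stem that starts with GG, closed by its reverse complement around a 4-base loop that starts with TTT, was searched for on the transcript strand of the annotated models of mouse build mm10 (GENCODE M21). It was found in 44 of 67 clustered genes and in 1 of 8 variants, H2afx, against 0.311% of 21853 protein-coding genes searched over whole models. In the last 200 bases of the models it was found in 25 of 67 clustered genes, 0 of 8 variants and 0.119% of protein-coding genes, and Clec2d was the sole match there outside the histone genes. The 7 forms follow, 5′ to 3′ as DNA letters, with the loop in capitals.
Form of 26 genes, among them Hist2h2aa2, Hist1h1c and Hist1h2bg: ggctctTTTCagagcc
Form of 7 H4 genes, among them Hist1h4m and Hist1h4h: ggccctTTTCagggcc
Form of 6 genes, among them Hist1h3e: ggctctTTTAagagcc
Form of Hist1h4i and Hist2h4: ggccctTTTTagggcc
Form of Hist1h4b and Hist1h4j: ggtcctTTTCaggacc
Form of Hist2h2ac: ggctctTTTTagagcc
Form of the variant H2afx: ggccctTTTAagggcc
The H4 genes differ from most others in the stem rather than in the loop. In Hist2h2aa2 (528-base model) the loop lies at chr3:96239784-96239799 on the minus strand, 35 bases before the annotated end. In H2afx it lies at chr9:44335240-44335255 on the plus strand, with 822 annotated bases after it. H2afx is known to give both a stem-loop mRNA and a longer polyadenylated one.

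Upstream sequence also differed between classes. In the 250 bases before the RefSeq start (GRCm38.p6, 69 of 75 genes matched), CCAAT on either strand was present in 51 of 62 clustered genes and 5 of 7 variants, against 37.5% of 27025 genes. By class it was in 18 of 18 H2A, 16 of 16 H2B, 6 of 6 H1, 8 of 10 H3 and 3 of 12 H4 genes. The octamer ATTTGCAT, a motif known from H2B promoters, was in 7 of 18 H2A and 7 of 16 H2B genes, in 0 of the clustered H1, H3 and H4 genes, in 1 of 7 variants and in 1.81% of all genes. TATAAA was in 29 of 62 clustered genes, 1 of 7 variants and 14.3% of all genes. Many H2A and H2B genes lie head to head, with 176 to 306 bases between annotated starts, so the windows of partners can overlap. A match on either strand can then count for both partners, and the H2A and H2B counts are not independent. The octamer, for example, was found for both Hist1h2ae and its neighbour Hist1h2bg. Upstream sequences of a clustered H2B gene and of a variant that holds all 3 motifs are shown side by side, with CCAAT, the octamer and TATAAA (either strand) in capitals.
Hist1h2bg, chr13:23571150-23571399, plus strand: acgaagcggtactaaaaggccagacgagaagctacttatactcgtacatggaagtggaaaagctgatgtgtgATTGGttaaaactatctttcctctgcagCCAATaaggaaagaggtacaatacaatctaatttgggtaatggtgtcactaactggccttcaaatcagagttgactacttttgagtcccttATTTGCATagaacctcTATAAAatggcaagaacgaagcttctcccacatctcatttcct
H3f3b, chr11:116024505-116024754, minus strand: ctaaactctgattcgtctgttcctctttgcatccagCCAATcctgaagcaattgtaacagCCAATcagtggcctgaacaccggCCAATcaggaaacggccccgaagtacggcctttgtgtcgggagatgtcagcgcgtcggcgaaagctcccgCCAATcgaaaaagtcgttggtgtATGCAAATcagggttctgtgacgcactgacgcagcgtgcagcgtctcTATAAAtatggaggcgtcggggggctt
Both windows hold the 3 motifs. The H3f3b window precedes the start shared by RefSeq and the spliced model H3f3b-201, and it lies inside the span of the gene, since the longer model H3f3b-202 begins farther upstream. A match describes these letters in this window and is not evidence of binding.

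At least 1 TPM in every library was reached by 51 of 67 clustered genes and 8 of 8 variants, where 42.1% of nuclear protein-coding genes reached it. The share was 76.1% for clustered genes. By class it was 12 of 13 for H4, 11 of 12 for H3, 13 of 18 for H2B, 11 of 18 for H2A and 4 of 6 for H1. In the top 10% of protein-coding genes by mean TPM stood 8 clustered genes and 5 variants. The median clustered gene had 3.74, 5.84 and 4.65 TPM in replicates 1, 2 and 3, and the median variant 29.1, 37.4 and 44.3 TPM, so the groups of library medians did not overlap. On the log2(TPM + 1) scale the variant median exceeded the clustered median by 2.62, 2.48 and 3.00, a mean of 2.70 ± 0.27 (SD, n = 3). Adding 1 before the logarithm makes differences between low genes look smaller.

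**Figure D1:**
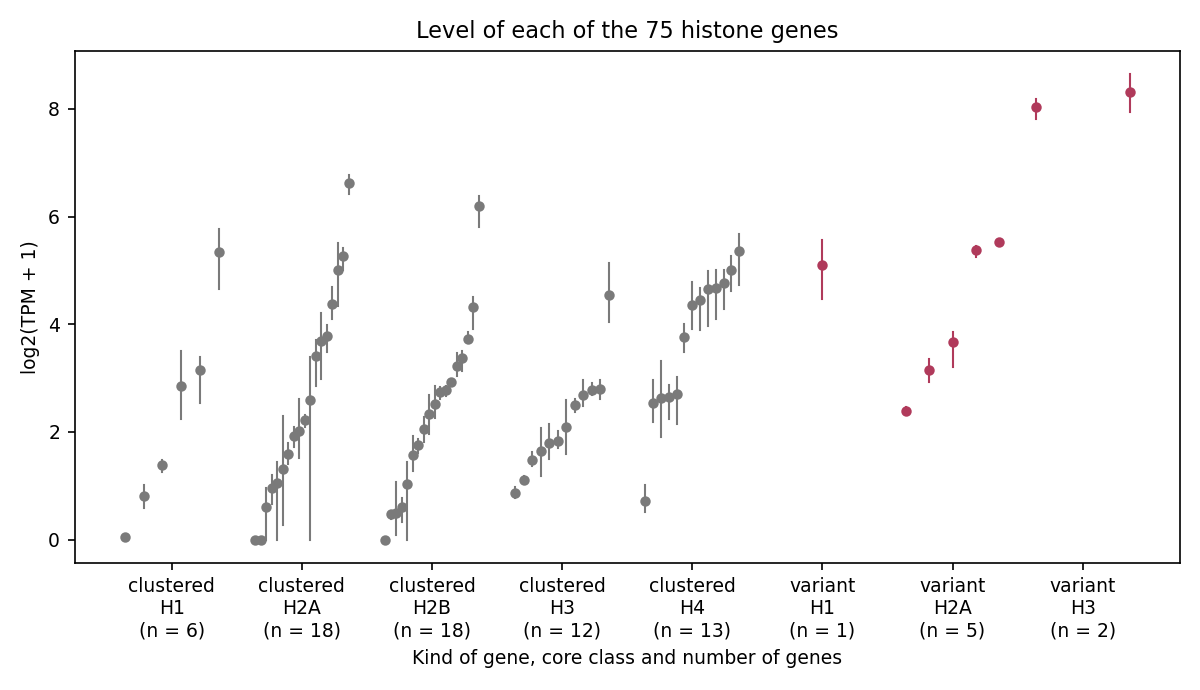
Level of each of the 75 histone genes as log2(TPM + 1) on the y axis, by kind of gene and core class on the x axis. Points are means over 3 libraries and lines run from the lowest to the highest library. H3f3a and H3f3b stand above all clustered genes, and 3 clustered genes lie at 0.

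Summed over genes, both kinds came to nearly the same level. The 67 clustered genes summed to 592, 812 and 796 TPM in replicates 1, 2 and 3, and the 8 variants to 589, 832 and 741 TPM. Their ratio, variant over clustered, was 0.995, 1.02 and 0.930, or −0.03 ± 0.07 as log2 (SD, n = 3), and its sign differed between libraries. In expected counts, which are not per length, the variants had 66299, 25891 and 63027 against 26359, 11210 and 29154 for the clustered genes, a ratio of 2.33 ± 0.178. Variant models are longer (median 1938 against 539 bases), so the near equality holds per length only. Counts per kilobase of each gene's longest annotated protein-coding model, a scale added after seeing the data, gave a log2 ratio of −0.24 ± 0.08. For H3f3a that model has 2841 bases, while its effective length was 831.6, 711.9 and 898.2 bases in replicates 1, 2 and 3. This ratio thus depends on the model chosen. A count summed over near-identical genes does not depend on how reads were divided among them, and a TPM sum depends on it as far as the copies' effective lengths differ.

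H3f3a and H3f3b made up 79.1%, 82.7% and 78.2% of the variant sum and 39.4%, 41.9% and 37.7% of the sum over all 75 genes. The other 6 variants summed to 123, 144 and 162 TPM, 0.196 ± 0.0164 of the clustered sum. The balance of variant and clustered genes therefore differed by class. For H3 the variants had 466, 688 and 579 TPM and the clustered genes 52.0, 74.9 and 48.9 TPM, a ratio of 8.97, 9.18 and 11.9. For H2A the variants had 102, 111 and 115 TPM and the clustered genes 222, 245 and 254 TPM. That ratio was 0.460, 0.454 and 0.454, the most even between libraries of the 3 classes with variants. For H1 the single variant H1f0 had 21.1, 32.6 and 46.2 TPM against 35.1, 63.4 and 69.9 TPM for the clustered genes, a ratio of 0.592 ± 0.0734. H2B and H4 have no variant here, with clustered sums of 131, 174 and 170 TPM and of 153, 254 and 253 TPM.

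**Figure D2:**
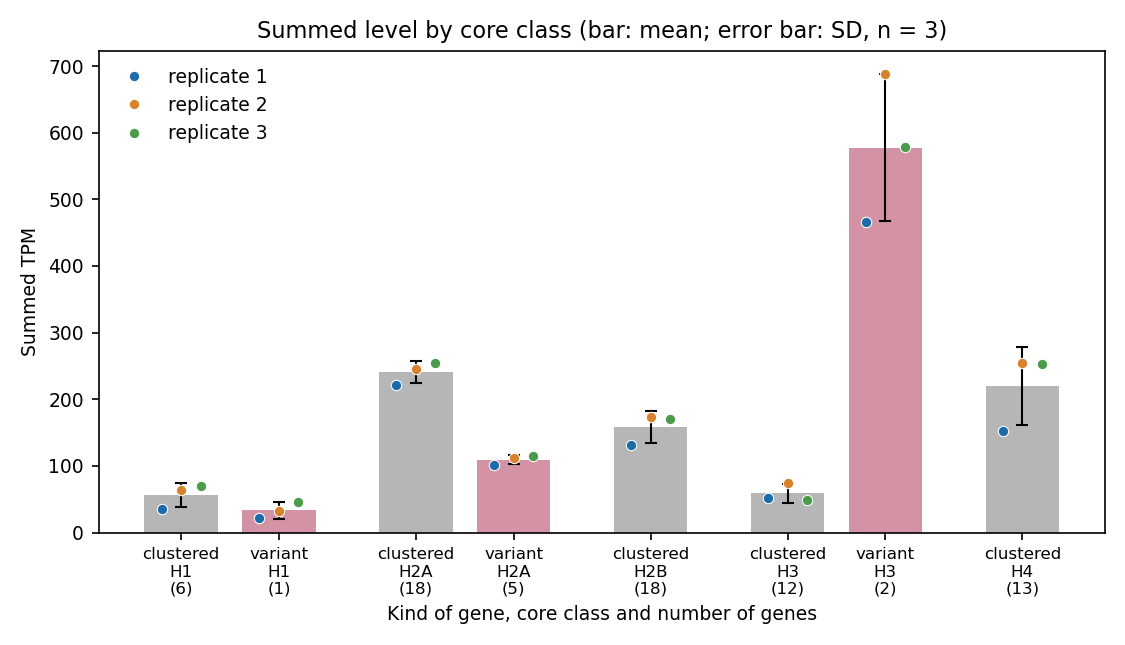
Summed TPM (y axis, from 0) of clustered genes in grey and variants in red by core class (x axis, number of genes in brackets). Bars are means, error bars SD over 3 libraries and points single libraries. Variant H3 reaches 578 ± 111 TPM from 2 genes, and clustered H3 58.6 ± 14.2 TPM from 12.

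The nucleosome holds the 4 core histones in equal number, which the mRNA sums did not mirror. With variants included, H2A over H2B was 2.48, 2.05 and 2.17 and H3 over H4 was 3.39, 3.00 and 2.48. Among clustered genes alone, H2A over H2B was 1.70, 1.41 and 1.49, while H3 over H4 was 0.341, 0.295 and 0.193. Clustered H3 thus had the lowest sum of the 4 core classes, and H3 as a whole the highest. These are mRNA levels, and proteins were not measured.

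Of the variants, H3f3a and H3f3b encode the same 136-residue protein, histone H3.3, which is placed into chromatin outside replication. H3f3a (chromosome 1, 180800832 to 180813943) had 244, 400 and 304 TPM in replicates 1, 2 and 3, a mean of 316 ± 78.7 and rank 112 of 22015 protein-coding genes. H3f3b (chromosome 11, 116021912 to 116027962) had 222, 288 and 275 TPM, a mean of 262 ± 34.7 and rank 156. H3f3a was the higher in every library, but the ranges overlapped. In counts the order turned, with 18337, 7635 and 17746 for H3f3a and 34547, 13375 and 31517 for H3f3b, whose main model is longer. The antisense gene Gm17275 overlaps H3f3a and had 808, 73 and 183 counts, and neither labels nor files state whether counting used strand.

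The next variants belong to H2A. H2afz encodes H2A.Z, found at promoters and enhancers, and had 46.0, 43.6 and 45.9 TPM, a mean of 45.2 ± 1.35. H2afy encodes macroH2A1, which has a large extra domain (372 residues here against 128 for H2A.Z), and had 37.1, 42.1 and 42.7 TPM, a mean of 40.7 ± 3.07. H2afz lay above H2afy in each library, without overlap of the ranges in TPM. In rescaled TPM H2afz had 155, 108 and 132 and H2afy 125, 104 and 123, so there the ranges overlapped and H2afz varied more. H2afv encodes a second H2A.Z that differs from the product of H2afz at 3 of 128 residues, and had 6.57, 7.62 and 9.28 TPM, below H2afz in all 3 libraries. H2afj had 8.27, 13.5 and 13.3 TPM, higher than H2afv in each library although the ranges overlapped. H2afx, whose product is phosphorylated at DNA breaks, was the lowest variant at 4.04, 4.50 and 4.22 TPM. H1f0 encodes the linker histone H1.0 of differentiated cells and had a mean of 33.3 ± 12.5 TPM. It was lowest in replicate 1 and highest in replicate 3, in rescaled TPM too (71.3, 80.6 and 133), and its range reached those of H2afy and H2afz.

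Transcripts of the variants were divided as follows in the alignment-based transcript table. H3f3b-201 (1993 bases) held 92.7%, 95.4% and 93.1% of the gene's TPM. H3f3a was spread over H3f3a-201 (888 bases) with 63.3%, 56.6% and 54.0%, H3f3a-207 (724 bases) with 25.0%, 36.9% and 31.7% and the long H3f3a-205 (2841 bases) with 10.7%, 6.08% and 13.6%. H2afz-201 held 98.6 ± 1.33% of its gene. For H2afy, H2afy-201 held 51.8 ± 9.96%, the protein-coding H2afy-202 13.0 ± 3.90%, and H2afy-204, annotated as a processed transcript without a coding sequence, 31.8 ± 6.91%, so the gene level of H2afy is not all from coding models. H2afj and H2afv were each divided between a long and a short model, and the short one of H2afj ranged from 29.4% to 56.5%. In the read-based table the leading transcript of H3f3a, H3f3b, H2afz and H2afy was the same.

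**Figure D3:**
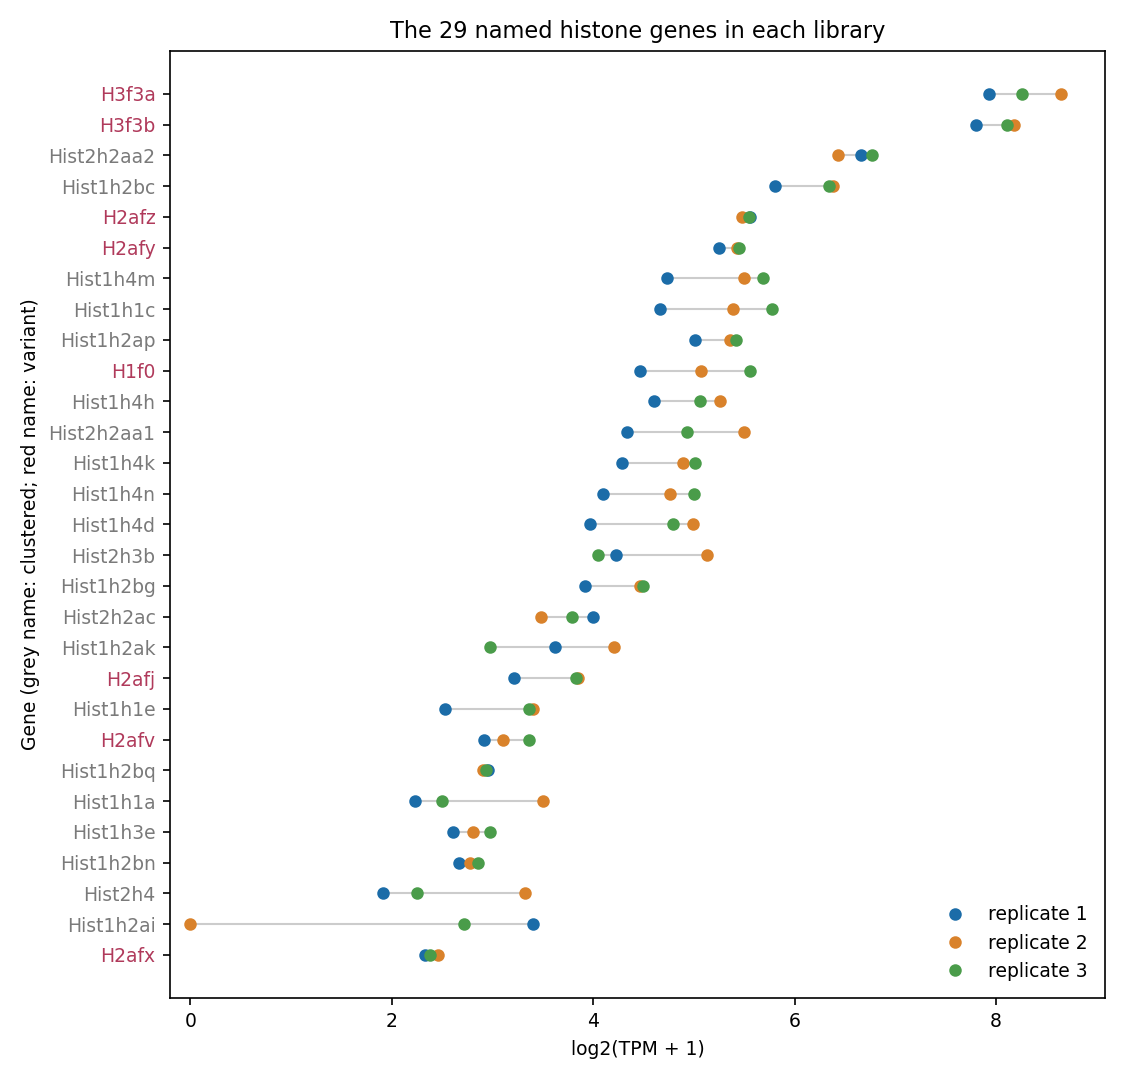
The 29 named histone genes (y axis, ordered by mean TPM, variants in red and clustered genes in grey letters) as log2(TPM + 1) on the x axis, with 1 point for each library. On this scale H2afz and H2afx vary little between libraries, while Hist1h2ai is at 0 in replicate 2.

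Among clustered genes the sum was carried by a few. The 10 most abundant held 55.3%, 56.6% and 60.9% of it, and Hist2h2aa2 with Hist1h2bc alone 26.1%, 20.6% and 23.6%. By location, the 54 genes of the Hist1 cluster (chromosome 13, 21715763 to 23934851) held 71.2 ± 2.77%, the 10 of Hist2 (chromosome 3, 96219865 to 96270132) 26.0 ± 2.86%, the 2 of Hist3 on chromosome 11 2.75 ± 0.469% and Hist4h4 on chromosome 6 0.0874 ± 0.0373%. Hist2 thus held more of the level than its 10 of 67 genes would by number.

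Hist2h2aa2, a core H2A gene (chromosome 3, 96239749 to 96240276), had 99.7, 85.0 and 108 TPM in replicates 1, 2 and 3. Its copy Hist2h2aa1, with an identical coding sequence, had 19.2, 44.3 and 29.5 TPM. One was lowest in the library where the other was highest, replicate 2. Their sum was 119, 129 and 137 TPM, from 3390, 1094 and 3020 counts. The summed counts are free of the split, and the summed TPM moves with it only as far as the effective lengths differ (306 bases for Hist2h2aa2 and 364 for Hist2h2aa1 in replicate 1). Gm20634, a noncoding gene of the same strand that overlaps Hist2h2aa1, had 765, 218 and 716 counts beside the 630, 420 and 737 of Hist2h2aa1. Hist2h2ac, another H2A gene of that cluster, had 14.9, 10.2 and 12.9 TPM.

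Hist1h2bc, which encodes core H2B, had 54.9, 82.4 and 80.3 TPM, with 4641, 2041 and 4975 counts, the most counts of any clustered gene in replicates 1, 2 and 3 together. Its annotated transcript is unusual for the clusters. It has 2 exons on the plus strand of chromosome 13, from 23684199 to 23684621 and from 23692176 to 23692908, with 7554 bases between them. No stem-loop was found in the 742-base 3′ untranslated region of this spliced model. The coding part ends just before the splice, and the bases between the exons are outside the model and were not searched. Of 67 clustered genes, 65 have a protein-coding model of a single exon, and the exceptions are Hist1h2bc and Hist1h2be. Hist1h2be and Hist1h2bg encode the same protein as Hist1h2bc. Hist1h2bg had 14.1, 21.1 and 21.6 TPM, and the 3 genes together 70.5, 105 and 105 TPM, out of the H2B sum of 158 ± 23.9 TPM.

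In H1, Hist1h1c, the linker histone H1.2, had 24.3, 40.8 and 53.8 TPM and held most of the clustered H1 sum. Hist1h1e followed by mean with 4.77, 9.55 and 9.32 TPM, below the 10.3 TPM of Hist1h1a in replicate 2. Hist1h1e overlaps Hist1h2be on the same strand, and reads of the shared stretch cannot be told apart. In rescaled TPM Hist1h1c had 81.9, 101 and 155, lowest in replicate 1 as H1f0 was. The testis gene Hist1h1t was at 0.0300 TPM on average, from 3, 0 and 2 counts.

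The 13 H4 genes encode 1 protein of 103 residues, and no single gene dominated. Hist1h4m had 25.6, 44.2 and 50.4 TPM, and Hist1h4n, with an identical coding sequence, 16.1, 26.1 and 31.1 TPM. Hist1h4h had 23.4, 37.4 and 32.5 TPM and Hist1h4d 14.7, 30.9 and 26.6 TPM. Each of these was lowest in replicate 1, and also in rescaled TPM, for Hist1h4m with 86.2, 109 and 145. Hist1h4k had 18.5, 28.6 and 31.2 TPM from 167, 68 and 237 counts, since its 312-base model is coding sequence alone and leaves an effective length of 99.7, 88.3 and 117 bases. The TPM of such short models leans on that estimate.

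Clustered H3 was led by Hist2h3b with 17.8, 34.0 and 15.6 TPM, highest in replicate 2. The antisense gene Gm20628 overlaps Hist2h3b and had 282, 53 and 254 counts, beside 428, 233 and 290 for Hist2h3b. Whether counting used strand is not stated. Next by mean was Hist1h3e with 5.11, 6.02 and 6.84 TPM. Hist1h3h, with 5.40, 6.55 and 5.68 TPM, was above Hist1h3e in replicates 1 and 2, so these 2 are not separated. The common product of Hist2h3b and Hist1h3e differs from H3.3 at 4 of 136 residues. The 7 genes whose longest coding sequence gives that protein, known as H3.2, summed to 39.7 ± 12.0 TPM. The 4 genes of another, H3.1, Hist1h3a, Hist1h3g, Hist1h3h and Hist1h3i, summed to 16.8 ± 1.28 TPM, against 578 ± 111 TPM for H3.3. Hist2h3c1, at 2.13 ± 0.967 TPM, is not among the 7, since its longest coding sequence gives 181 residues. Another of its models shares the coding sequence of Hist2h3c2, which is among the 7. In H2A, 9 genes share 1 protein and summed to 57.2, 64.8 and 69.5 TPM, of which Hist1h2ap had 31.3, 40.0 and 41.7. Hist1h2ao, with the coding sequence of Hist1h2ap, was listed at 0 in every library, while the read-based table gave it 0.382, 0 and 0.0550 TPM and the authors' upper bounds were 1.39, 2.87 and 0.879 TPM, so the sum of both is the firmer value.

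Of the 67 clustered genes, 12 had a mean under 1 TPM. Hist1h2aa, Hist1h2ba and Hist1h2ao had no counts in the alignment-based table. In the read-based table Hist1h2aa was again at 0, and Hist1h2ba had 0.102 TPM in replicate 2 alone. For Hist1h2aa and Hist1h2ba, whose coding sequences are identical to that of no other member, 0 counts mean that the true value may still be up to 3 counts, or 0.0540, 0.141 and 0.0657 per 1000000 in the 3 libraries, as far as counting error goes. For Hist1h2ao, a copy of Hist1h2ap, the division of reads sets the limit, and the wider bounds given above apply. Hist1h2aa and Hist1h2ba are a testis pair. Outside the rule, H3f3c had 1.94 ± 0.484 TPM, Cenpa, the histone of centromeres, 1.62 ± 0.293 TPM and H2afy2 0.803 ± 0.396 TPM, and 7 of 11 such genes had no counts.

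H2A and H2B genes of the clusters often lie head to head. There were 12 such pairs, with 176 to 306 bases between their starts, all within the 1000 bases set as limit. The levels of the partners were often far apart. Hist1h2bc had 72.5 TPM on average, and its neighbour Hist1h2ac, 251 bases away, 0.580, 1.31 and 0.950 TPM. Hist1h2bg had 18.9 TPM and Hist1h2ae 2.79 TPM. In Hist2h2ac and Hist2h2be the H2A gene led instead, with 12.7 against 2.36 TPM. In counts that order turned, with 403, 78 and 266 for Hist2h2ac and 443, 152 and 418 for Hist2h2be. The model of Hist2h2be is the longer, at 2620 against 520 bases. The H2A gene had the higher mean TPM in 5 pairs, the H2B gene in 6, and both were at 0 in 1. In 9 of the 12 the order in TPM was the same in every library. A pair with a near-identical copy elsewhere, such as Hist1h2ao with Hist1h2bq or Hist1h2ap with Hist1h2br, depends on the division of reads.

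**Figure D4:**
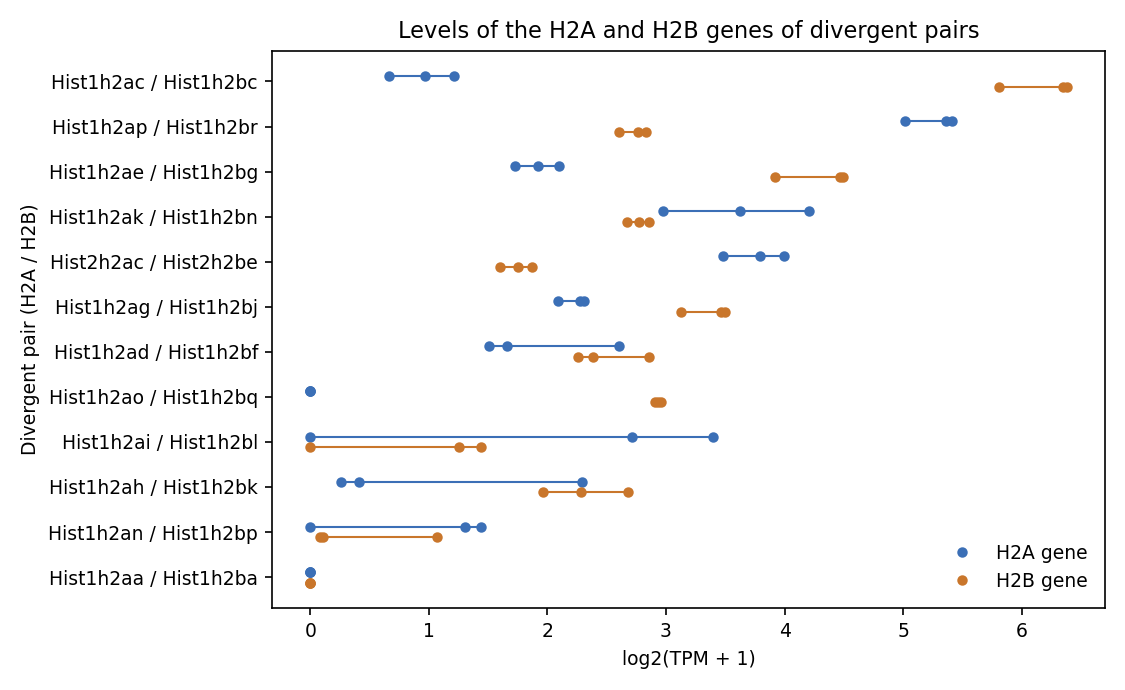
Levels as log2(TPM + 1), x axis, of the H2A gene (blue) and the H2B gene (orange) of the 12 divergent pairs, y axis, with 1 point for each library and a line over the range. The partners lie farthest apart for Hist1h2bc and Hist1h2ac, and 9 pairs keep their order in all 3 libraries.

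The annotated 3′ ends split the clustered genes in 4 groups. In 22 genes the stem-loop lies within 100 bases of the end of a model, at 3 to 74 bases. In another 22 the model runs on for more than 100 bases after the loop. In 8 no loop was found in the 3′ untranslated region, and 15 have models with under 20 bases of it, which cannot show one. Some of the 8 share that limit. Hist1h2bq and Hist1h2br had 84.9 ± 8.76% and 99.5 ± 0.896% of their TPM in 381-base models without such a region. Hist2h3b has 37 bases of it, and Hist1h2bc is spliced right after its coding part. The first group held 51.6%, 48.0% and 49.6% of the clustered TPM, the second 19.6%, 23.1% and 25.2%, the third 16.2%, 18.3% and 15.2% and the last 12.7%, 10.6% and 9.96%. In counts the first held 25.7 ± 2.39% and the second 48.1 ± 3.44%. The order of these groups therefore turns with the division by length, and the tables hold values per model, not reads by position. The long-tailed group had 11664, 5523 and 14818 counts, with Hist1h1c at 2938, 1451 and 4742 and Hist3h2a, an H2A gene whose model has 1643 bases after the loop, at 2795, 920 and 3146. Whether the reads lie before or after the loop was not tested.

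**Figure D5:**
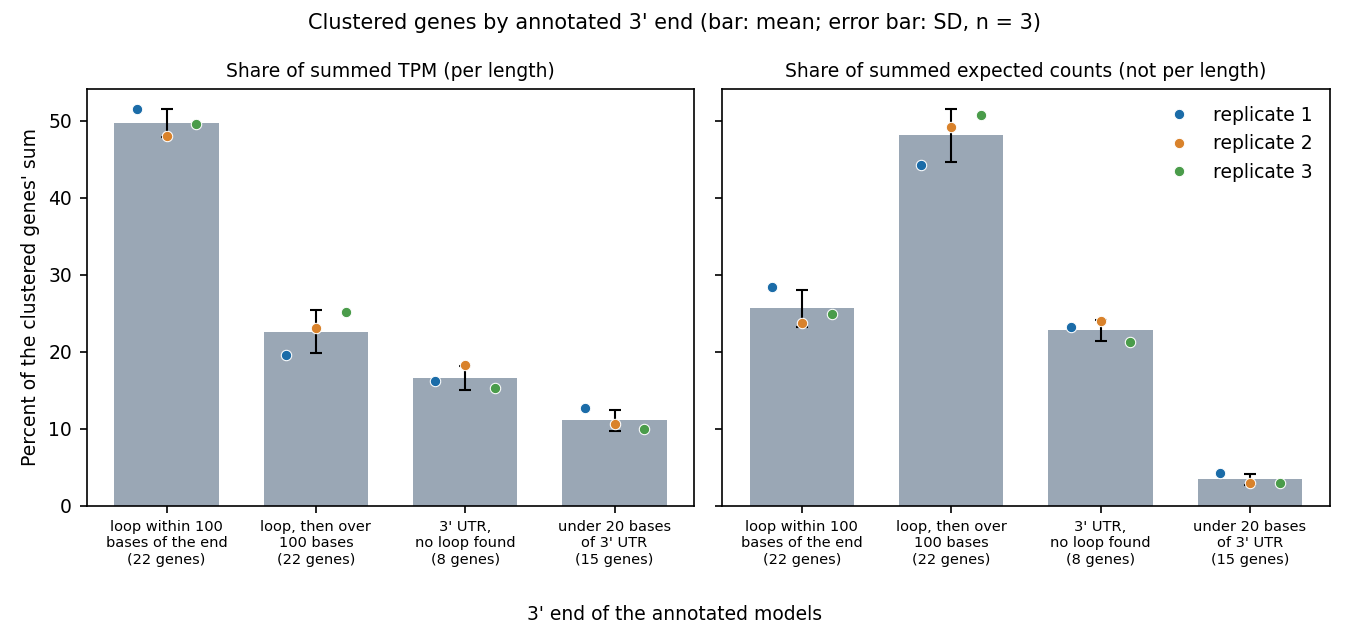
Percent of the clustered genes' sum (y axis) held by each group of annotated 3′ ends (x axis), in TPM on the left and in expected counts on the right. UTR stands for untranslated region, bars are means, error bars SD over 3 libraries and points single libraries. Genes with a loop near the end lead in TPM at 49.7 ± 1.79%, and those with a long stretch after it lead in counts at 48.1 ± 3.44%.

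Most genes that act on histone mRNAs were detected. Of 15 in the list, 13 reached 1 TPM throughout, where 42.1% of nuclear protein-coding genes did. The list median was 8.81 ± 0.286 TPM, beside 0.187 ± 0.0322 TPM for nuclear protein-coding genes. Slbp, which binds the stem-loop, had 8.51, 8.84 and 9.08 TPM. Npat, the coactivator of the clustered genes in S phase, had 2.57, 4.38 and 2.50 TPM. Highest were Sympk, a scaffold of the cleavage complex, at 24.7 ± 2.71 TPM, Mif4gd, the Slbp-interacting translation factor, at 19.5 ± 4.79 TPM and Srrt, a partner of the cap-binding complex, at 15.8 ± 3.51 TPM. Lsm11, a U7 particle protein needed for processing, was at 0.527 ± 0.0404 TPM and Zfp473 at 0.173 ± 0.119 TPM.

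Histone chaperones and exchange factors, 1 list, all reached 1 TPM throughout, 24 of 24, beside 42.1% of nuclear protein-coding genes. Their median was 13.5 ± 2.69 TPM. The highest were Npm1 at 82.5 ± 14.2 TPM, Daxx at 64.2 ± 23.7 TPM and Znhit1 at 55.4 ± 8.05 TPM. Daxx and its partner Atrx (25.5 ± 6.59 TPM) deposit H3.3, as does Hira (7.66 ± 2.70 TPM). Chaf1a and Chaf1b, subunits of the factor that deposits new H3 and H4 behind the replication fork, had 1.24 ± 0.208 and 2.86 ± 0.649 TPM. Of 27 genes of DNA replication and S phase, 21 reached 1 TPM throughout, again beside 42.1%, and their list had a median of 3.37 ± 0.754 TPM. Pcna was highest at 79.1 ± 18.1 TPM, then Mcm6 at 13.3 ± 3.51 and Mcm3 at 9.73 ± 3.68 TPM. The proliferation marker Mki67 had 3.06, 4.23 and 3.22 TPM, and Ccna2, the S phase cyclin, 0.570 ± 0.244 TPM. In bulk RNA, fewer cells in S phase and less histone mRNA per cell cannot be told apart.

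Libraries were compared through the log2 ratio of each to the mean of the others in rescaled TPM, over genes whose mean reached 1 TPM (55 clustered genes, 8 variants and 9604 protein-coding genes). In replicates 1, 2 and 3 the median was 0.00, −0.13 and 0.12 for clustered genes, −0.02, −0.23 and 0.11 for variants and 0.08, 0.01 and −0.12 for all protein-coding genes. The classes did not move together. Replicate 1 had 11 of 12 H4 genes below the others, with a median of −0.42, and 3 of 4 H1 genes below, with a median of −0.64, while 8 of 11 H3 genes and 6077 of 9604 protein-coding genes lay above. Replicate 3 had 10 of 12 H4 genes above, with a median of 0.37, but 9 of 11 H3 genes below, with a median of −0.23, and 3133 of 9604 protein-coding genes above. Replicate 2 had 12 of 14 H2B genes below, with a median of −0.24, and 4718 of 9604 protein-coding genes below, and it is the library with the fewest counts. The coefficient of variation of rescaled TPM over libraries had a median of 24.4% in clustered genes, 12.9% in variants and 13.6% in all protein-coding genes, and clustered genes had fewer counts than variants. With 1 group these library differences have no test.

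Among genes whose mean reached 5 TPM, the largest ranges were in Hist1h2ai, Hist2h4, Hist1h2ak, Hist1h1a and Hist2h2ac. Hist1h2ai had 32.2, 0 and 16.0 rescaled TPM, from 150, 0 and 70 counts. It is 1 of the 9 genes of a common H2A protein, whose sum varied far less, as given above. Hist2h4 had 9.31, 22.3 and 10.8 rescaled TPM, highest in replicate 2, as was Hist1h1a with 12.5, 25.6 and 13.4. Hist1h2ak had 38.1, 43.2 and 19.8 and Hist2h2ac 50.4, 25.2 and 37.0.

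Both quantifications of the authors, from the alignment and from the reads, gave like values once rescaled. Of 41 histone genes with at least 5 TPM in either, 41 lay within 2-fold, as did 6611 of 6645 protein-coding genes. Variant over clustered came to 1.02, 1.03 and 0.947 in the read-based table. Among these 41, the largest differences were in Hist1h4k, with 74.3 rescaled TPM from the alignment and 135 from the reads, in Hist1h2bn with 16.9 and 27.2, in Hist1h2ai with 16.1 and 25.6, in Hist1h2ak with 33.7 and 53.5 and in Hist1h2bq, where the reads gave the lower value. The first 4 have models with hardly any 3′ untranslated region. Hist1h2bq shares its coding sequence and 1 whole model with Hist1h2br, and their sum was 12.6, 12.6 and 11.7 TPM. The authors' credibility bounds of TPM within a library spanned 1.25 to 12.5 for Hist1h2bq in replicate 1, beside 217 to 222 for H3f3b. The H3f3b TPM of 222.4 there lay just above its upper bound of 222.0. So wide a span as that of Hist1h2bq was not typical. In replicate 1 the upper over the lower bound had a median of 1.38 over 55 clustered genes and 1.07 over the 8 variants. Hist2h3c1 and Hist2h3c2, the remaining pair of identical coding sequences, summed to 3.74, 6.58 and 3.43 TPM. On the rescaled values the sum was 12.9 ± 3.21 TPM (SD, n = 3) from the alignment and 8.07 ± 2.50 TPM (SD, n = 3) from the reads, so for these copies the sum also differed between the tables.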

How the data were processed

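Gene tables with 1 value set per library hold, per the file headers, the authors' expected counts (not normalized), TPM, FPKM, posterior mean TPM and bounds of TPM (a signal that is never negative), a transcript table of the same kind made from an alignment, and a transcript table with estimated counts and TPM made from the reads. Per the deposited description files, build mm10 and GENCODE M21 were used, and programs, their versions and the strand setting are not stated in the labels or files. Per the deposited effective lengths, short models have few usable bases.

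Genes were chosen by symbol. Members, lists and alternatives were chosen with earlier results of these data known. Named genes were the 8 variants, the 10 most abundant clustered genes, the 2 most abundant of each class, the 5 of widest range and the 5 that differed most between quantifications (from 5 TPM up), identical copies by group, and 3 genes of each list with Slbp, Npat and Mki67. Other genes were named after their values were seen.

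Counts were rounded for the TMM factors of edgeR 4.0.16 and the size factors of DESeq2 1.42.0 (R 4.3.3). Library ratios used an offset of 0.1. Python 3.11.15, pandas 2.3.3, numpy 2.4.6, Biopython 1.88 and matplotlib 3.10.9 did the rest. No test between groups was possible with 1 group.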

Additional observations from a re-analysis of the deposited data

How the results depend on the processing

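The near equality of the variant and clustered sums holds per length. Their log2 ratio of −0.03 was 1.22 with TMM-scaled counts and with DESeq2-scaled counts, which are not per length. Of alternatives chosen after seeing the data, counts per kilobase of each gene's longest annotated protein-coding model gave −0.24. Also chosen after seeing the data, leaving out genes with under 20 bases of 3′ untranslated region gave 0.14, and leaving out H3f3a and H3f3b gave −2.36. Rescaled TPM and FPKM multiply both sums of a library by the same factor, so they could not move the ratio. Posterior mean TPM, read-based TPM and the 1 TPM limit could, and kept the ratio within 1 SD. Without 1 replicate at a time it lay between −0.06 and 0.01, so it has no stable sign. The sums themselves move with the unit. For clustered genes and variants they were 336.9 and 340.4 in read-based TPM, 2099 and 2059 in rescaled TPM, 1040.0 and 1020.0 in FPKM, 549.8 and 1269 as TMM-scaled counts per 1000000, 20730.0 and 47830.0 in DESeq2-scaled counts and 1852 and 1561 in counts per kilobase. Leaving out 1 replicate gave 694.4 to 804.1 TPM and 664.9 to 786.2 TPM. The difference of medians was 2.41 over genes with a mean of 1 TPM or more, and 2.55 to 2.81 without 1 replicate. Histone genes reaching the limit in every library numbered 34 at 5 TPM and 43 in read-based TPM in place of 59 at 1 TPM, and 59 to 62 without 1 replicate. Most of the named histone genes were moved in level by the read-based TPM, whose scale is lower. Hist1h1a, Hist1h2ai, Hist1h2ak, Hist1h4k and Hist2h4 stayed within 1 SD over libraries, Hist1h4k with 21.7 in place of 26.1 TPM. With few counts in short, near-identical genes, single copies are the least certain values here. No paired analysis was possible because there is 1 group.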
